A study of Mus musculus with 27 samples.

Results

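Bub1, Bub1b, Mad2l1, Ttk, Cenpe, Cenpf, Ndc80, Nuf2, Aurka and Aurkb encode proteins of the kinetochore and of the spindle checkpoint, and their mRNA was measured in the livers of 27 mice. The set is defined by name, by a rule that uses no measured value although earlier results of these data were known when it was drawn up, and made up 10 of the 55414 genes in the count table. All 10 reached the mean of at least 10 counts per library that a gene needed to be tested, as did 14114 genes in all. Over the 13 livers without CCl4 alone, 8 of the 10 reached that mean. The exceptions were Bub1 and Ttk, which passed through their level in the CCl4-treated livers.

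The kinetochore is the protein assembly on a centromere that holds a chromosome to the microtubules of the spindle. The spindle checkpoint delays the separation of sister chromatids until every kinetochore is attached, by keeping the activator Cdc20 away from the anaphase-promoting complex. These genes are transcribed mainly in G2 and mitosis, so a resting adult liver holds little of their mRNA, and hepatocytes and other liver cells make more of it when they re-enter the cell cycle after an injury.

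The mice were female Balb/c mice, 8 weeks old when the experiment began, and RNA came from homogenised whole liver. The control mice (n = 4) received olive oil intraperitoneally and PBS through the tail vein, and the methods of the study also give control mice a gavage of 0.5% carboxymethyl cellulose, the vehicle of 4MU. The 4MU (n = 3), siLuc-LNP (n = 3) and siHAS2-LNP (n = 3) groups received olive oil as well. In the CCl4 (n = 2), CCl4 + 4MU (n = 4), CCl4 + siLuc-LNP (n = 4) and CCl4 + siHAS2-LNP (n = 4) groups, intraperitoneal carbon tetrachloride, a liver toxin, was given for 2 weeks to produce fibrosis. 4MU (4-methylumbelliferone), an inhibitor of hyaluronan synthesis, was gavaged daily at 600 mg/kg. siHAS2-LNP is an siRNA against the hyaluronan synthase Has2 in lipid nanoparticles, and siLuc-LNP holds an siRNA against luciferase, a gene that mice lack. Both were injected into the tail vein, first at 1 mg/kg and then at 0.5 mg/kg, from 2 days before the first CCl4 injection. The label of the CCl4 group names only the CCl4 injection.

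Libraries held 7044386 to 29425937 counts, the lowest in mouse 4 of CCl4 + siHAS2-LNP, and levels are given as CPM, read counts divided by the library total after scaling by TMM, a normalisation that makes most genes equal between libraries. The limit of 3 counts, taken here as the floor of detection, lay between 0.104 and 0.401 CPM and covers counting error only. In mouse 3 of CCl4 + siLuc-LNP, the 20 most abundant genes took 41.4% of counts, against 23.8% to 33.2% in the other libraries. Mouse 4 of CCl4 + 4MU stood apart by its bile duct markers, which summed to 122 CPM, of which Krt19 gave 92.6. Hepatocyte markers (Alb, Ttr, Apoa1, Cps1 and Hnf4a) were detected in every group. Has2, the target of the siRNA, had 0 counts in all but 2 libraries, 1 of CCl4 with 2 counts and 1 of CCl4 + siLuc-LNP with 1 count, so its knockdown could not be read from these livers.

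RefSeq promoter sequences (build GRCm38.p6, 250 bases before to 50 after the start of transcription) were matched for 9 of the 10 genes. Aurkb had no match. Genes of G2 and mitosis are known to be repressed in resting cells by the DREAM complex at a short element called CHR, and to be activated through CCAAT boxes. The letters of the CHR in its common forms on either strand, either TTTGAA or else TTCGAA, were found in 6 of the 9 promoters and in 19.2% of all 32851 promoters of that length. CCAAT on either strand was found in 6 of the 9 and in 37.4% of all. The promoters of Nuf2 and Mad2l1 held none of these motifs. No match says only that these letters were not in the window. The promoters of Bub1 and Ttk are shown as those of the genes with the highest log2 fold changes after CCl4, that of Aurka as the only gene of the 10 whose response to CCl4 differed past the threshold with 4MU, and that of Nuf2 because it held none of these motifs. Both Bub1 and Ttk passed the count filter only through the CCl4-treated livers. Capitals mark the CHR letters and CCAAT boxes on either strand, and each run reads 5′ to 3′ on the strand of the gene.
Bub1, chr2:127831810-127832109, minus strand: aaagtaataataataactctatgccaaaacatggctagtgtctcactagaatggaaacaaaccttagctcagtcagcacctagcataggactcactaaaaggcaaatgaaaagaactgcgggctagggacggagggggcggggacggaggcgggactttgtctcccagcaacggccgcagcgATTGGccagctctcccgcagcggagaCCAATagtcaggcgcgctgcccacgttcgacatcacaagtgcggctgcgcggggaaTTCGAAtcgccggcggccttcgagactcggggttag
Ttk, chr9:83834439-83834738, plus strand: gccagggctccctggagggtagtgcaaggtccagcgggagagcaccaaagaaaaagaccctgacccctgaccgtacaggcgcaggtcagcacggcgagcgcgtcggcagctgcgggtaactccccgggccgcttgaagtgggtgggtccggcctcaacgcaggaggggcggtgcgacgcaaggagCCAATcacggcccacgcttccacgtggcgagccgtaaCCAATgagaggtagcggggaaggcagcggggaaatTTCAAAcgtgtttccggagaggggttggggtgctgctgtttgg
Aurka, chr2:172370521-172370820, minus strand: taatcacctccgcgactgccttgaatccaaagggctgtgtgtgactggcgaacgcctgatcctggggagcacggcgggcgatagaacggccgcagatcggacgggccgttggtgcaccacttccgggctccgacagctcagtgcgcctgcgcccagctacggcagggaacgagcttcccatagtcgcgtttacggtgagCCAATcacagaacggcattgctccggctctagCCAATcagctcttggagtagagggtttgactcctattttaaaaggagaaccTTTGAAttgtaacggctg
Nuf2, chr1:169531415-169531714, minus strand: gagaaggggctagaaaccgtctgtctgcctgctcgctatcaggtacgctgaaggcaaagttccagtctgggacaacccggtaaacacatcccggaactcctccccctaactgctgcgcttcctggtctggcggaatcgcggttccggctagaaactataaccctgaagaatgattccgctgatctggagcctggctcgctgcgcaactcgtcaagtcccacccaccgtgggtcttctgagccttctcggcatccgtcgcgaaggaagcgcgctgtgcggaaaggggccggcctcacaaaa
In Bub1, TTCGAA began at base 15 after the start. In Ttk, the reverse complement of TTTGAA began at base 8. In Aurka, TTTGAA began at base 33. Each of these 3 promoters also held 2 CCAAT boxes on one or the other strand, within 68 bases before the start.

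Ndc80 (ENSMUSG00000024056, chr17:71803093-71833860) and Nuf2 (ENSMUSG00000026683, chr1:169325503-169359098) encode partners in the Ndc80 complex, the rod that binds the microtubule end at the outer kinetochore. All positions of genes are on GRCm39. Ndc80 was at 0.458, 0.118, 0.299 and 0.204 CPM in the control mice and at 7.84 and 18.3 CPM in the CCl4 mice. It was at 2.32, 2.39, 3.95 and 0.605 CPM in the CCl4 + 4MU mice, all below the lower of the CCl4 mice. The CCl4 + siLuc-LNP mice (6.47, 2.93, 5.16 and 11.3 CPM) overlapped the CCl4 mice, and the CCl4 + siHAS2-LNP mice (4.38, 4.199, 3.41 and 2.67 CPM) lay below them. The log2 fold change of Ndc80 between CCl4 and control mice was 5.56 (SE 0.554, adjusted p = 4.27e-08). Against CCl4 mice, Ndc80 fell by 2.50 on the log2 scale in CCl4 + 4MU mice (SE 0.460, adjusted p = 0.00126), and by 1.81 in CCl4 + siHAS2-LNP mice (SE 0.458, adjusted p = 0.0111).

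Nuf2 behaved like its partner. It was at 0.509, 0.118, 0.427 and 0.327 CPM in the control mice and at 15.6 and 31.8 CPM in the CCl4 mice. The CCl4 + 4MU mice had 4.78, 6.08, 10.3 and 1.74 CPM and the CCl4 + siHAS2-LNP mice 6.03, 7.03, 6.42 and 8.15 CPM, and neither group overlapped the CCl4 mice. The CCl4 + siLuc-LNP mice spanned both, at 13.6, 8.26, 7.74 and 26.8 CPM. The change of Nuf2 from control to CCl4 was 6.05 (log2, SE 0.589, adjusted p = 3.13e-08). In 4MU mice without CCl4, neither Ndc80 nor Nuf2 passed 3 counts in any liver (1, 1 and 0 counts for Ndc80 and 0, 3 and 1 for Nuf2). The fitted change from 4MU to CCl4 + 4MU mice was 5.99 for Ndc80 (log2, 95% interval 4.285 to 7.70) and 6.42 for Nuf2 (log2, 95% interval 4.76 to 8.08), both against a group at or under 3 counts per mouse.

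Cenpe (ENSMUSG00000045328, chr3:134918298-134979372) encodes the kinesin motor that carries chromosomes to the spindle equator, and Cenpf (ENSMUSG00000026605, chr1:189372752-189420315) a large coiled-coil protein of the outer kinetochore. Cenpe was at 0.555 to 0.967 CPM in the control mice, 17.7 and 35.1 CPM in the CCl4 mice, 2.42 to 10.1 CPM in CCl4 + 4MU, 9.49 to 28.5 CPM in CCl4 + siLuc-LNP and 9.38 to 14.6 CPM in CCl4 + siHAS2-LNP mice. Cenpf was at 0.236 to 0.560 CPM in the control mice, 23.4 and 38.8 CPM in the CCl4 mice, 2.99 to 13.0 CPM in CCl4 + 4MU, 12.6 to 39.6 CPM in CCl4 + siLuc-LNP and 13.8 to 17.0 CPM in CCl4 + siHAS2-LNP mice. Both rose with CCl4, by 5.22 (SE 0.463) for Cenpe and 6.07 (SE 0.499) for Cenpf on the log2 scale, and both fell with 4MU in CCl4-treated mice. In CCl4 + siHAS2-LNP against CCl4 mice, Cenpe passed the threshold (log2 fold change -1.19, SE 0.399, adjusted p = 0.0459). It did not when any single CCl4 + siHAS2-LNP mouse was left out (adjusted p up to 0.0918). Cenpf did not pass in the same comparison (log2 fold change -1.07, SE 0.406, adjusted p = 0.0753).

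Bub1 (ENSMUSG00000027379, chr2:127643036-127673806), Bub1b (ENSMUSG00000040084, chr2:118428684-118472076) and Ttk (ENSMUSG00000038379, chr9:83703392-83755037) encode the kinase family of the checkpoint: the kinases Bub1 and Mps1 and the kinase-like protein BubR1. Bub1 was at 0.204, 0.0590, 0 and 0.450 CPM in the control mice, that is 4, 1, 0 and 11 counts. It was at 11.5 and 25.7 CPM in the CCl4 mice, at 3.06, 3.69, 5.80 and 0.854 CPM in CCl4 + 4MU, at 9.21, 4.67, 5.10 and 23.4 CPM in CCl4 + siLuc-LNP and at 6.11, 6.10, 3.61 and 4.67 CPM in CCl4 + siHAS2-LNP mice. The lower CCl4 mouse lay above every CCl4 + 4MU and CCl4 + siHAS2-LNP mouse. Bub1 had the highest log2 fold change of the 10 genes between CCl4 and control mice, 6.60 (SE 0.744, adjusted p = 2.88e-07), and the widest standard error. Against CCl4 mice it fell by 2.48 (SE 0.574, adjusted p = 0.00535) in CCl4 + 4MU and by 1.86 (SE 0.574, adjusted p = 0.0317) in CCl4 + siHAS2-LNP mice, all on the log2 scale. The second of these calls was lost in DESeq2 (adjusted p = 0.0749).

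Ttk was also scarce in resting liver. It was at 0.204, 0.295, 0.342 and 0.286 CPM in the control mice and at 0, 0 and 0.0506 CPM in the 4MU mice, which held 0, 0 and 1 counts. In the CCl4 mice it stood at 13.1 and 31.2 CPM, and in the CCl4 + 4MU mice at 5.12, 4.64, 8.28 and 1.495 CPM, without overlap. It was at 13.7, 7.33, 7.14 and 21.7 CPM in CCl4 + siLuc-LNP mice and, with little spread, at 8.22, 8.59, 6.98 and 8.28 CPM in CCl4 + siHAS2-LNP mice. The change of Ttk from control to CCl4 was 6.26 (log2, SE 0.532, adjusted p = 5.15e-09), and the fitted change from 4MU to CCl4 + 4MU mice was 7.85 (log2, 95% interval 6.09 to 9.615). Bub1b, at 0.177 to 1.07 CPM in the control mice, rose by 5.22 (log2, SE 0.513, adjusted p = 3.51e-08) to 14.7 and 28.0 CPM in the CCl4 mice. It was at 2.63 to 9.46 CPM in CCl4 + 4MU and at 5.06 to 7.63 CPM in CCl4 + siHAS2-LNP mice, with log2 fold changes against CCl4 of -1.91 (SE 0.438, adjusted p = 0.00509) and -1.68 (SE 0.441, adjusted p = 0.0138).

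**Figure D1:**
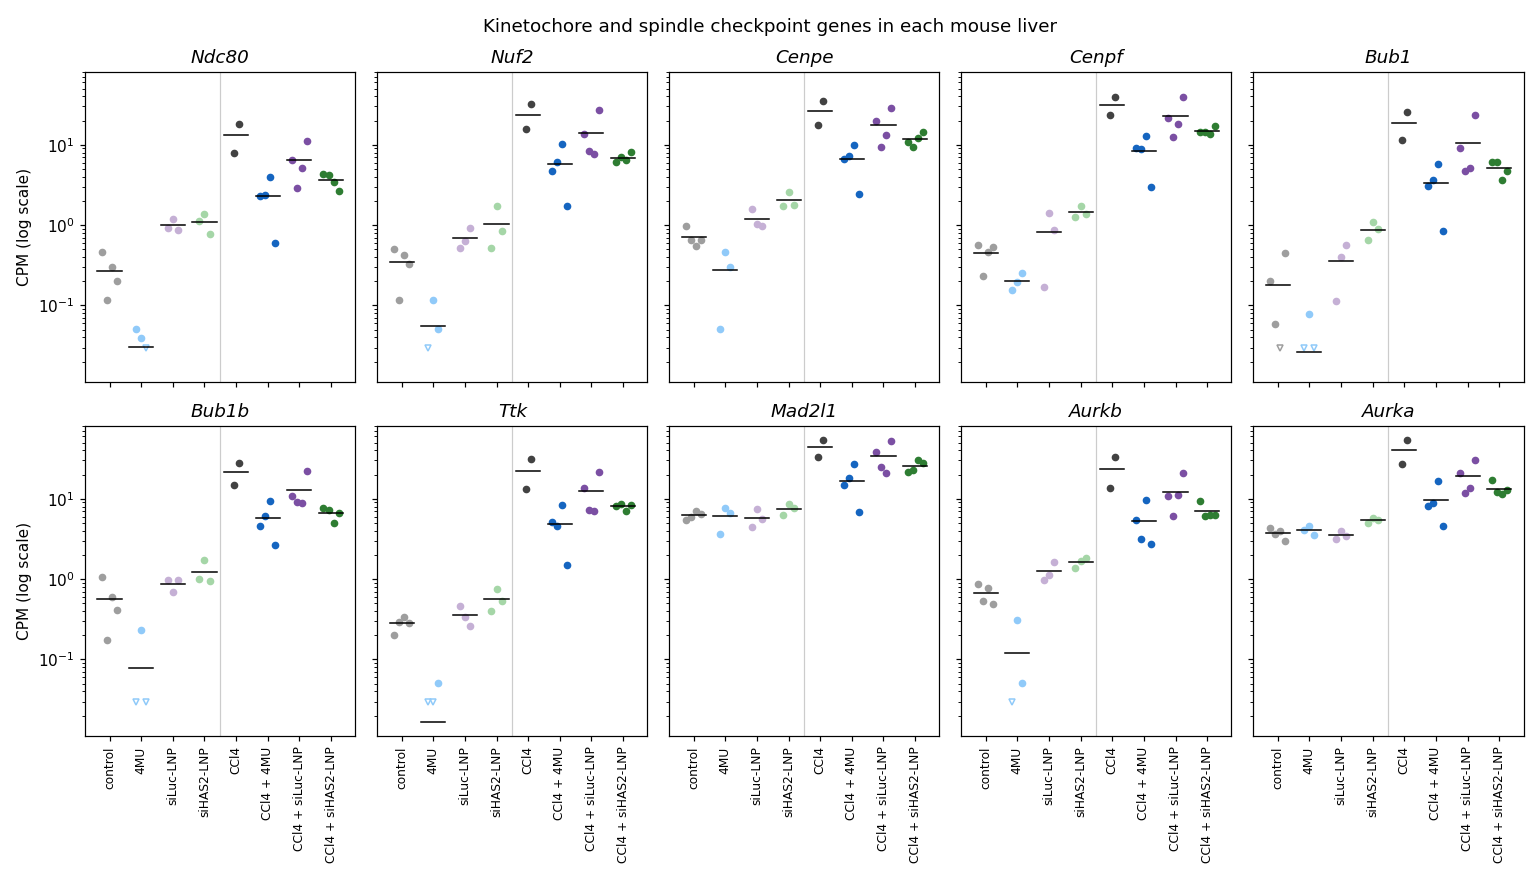
CPM of each gene in each mouse liver on a logarithmic axis, 1 panel per gene. Points are single mice, black lines the mean of the group, and open triangles at the foot mark mice with 0 counts, which have no place on the axis. In 4 genes (Cenpf, Bub1b, Ttk and Aurkb) every CCl4-treated mouse lies above every mouse without CCl4, and in the other 6 the lowest CCl4 + 4MU mouse reaches into the range of the mice without CCl4.

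Mad2l1 (ENSMUSG00000029910, chr6:66512208-66524204) encodes the checkpoint protein Mad2, which binds Cdc20 directly. It differed from the kinases by its level in livers without CCl4, at 5.50, 5.90, 7.004 and 6.50 CPM in the control and 3.64, 7.77 and 6.74 CPM in the 4MU mice. The CCl4 mice had 33.6 and 54.0 CPM. Mad2l1 had the smallest log2 fold change of the 10 between CCl4 and control mice, 2.81 (SE 0.364, adjusted p = 2.31e-06). The CCl4 + 4MU mice had 14.7, 18.1, 26.9 and 6.83 CPM, a decrease by 1.40 on the log2 scale (SE 0.357, adjusted p = 0.00962), which did not pass when the fit held no other group (adjusted p = 0.0597). In CCl4 + siHAS2-LNP mice it was at 21.8, 22.6, 30.6 and 27.8 CPM, and the difference from CCl4 mice did not pass the threshold (log2 fold change -0.77, SE 0.361, adjusted p = 0.151).

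Aurkb (ENSMUSG00000020897, chr11:68936467-68944764) encodes Aurora B, the kinase that releases faulty attachments at the centromere, and Aurka (ENSMUSG00000027496, chr2:172198109-172212849) encodes Aurora A, the kinase of spindle poles. Aurkb was at 0.491 to 0.865 CPM in the control mice, 13.5 and 33.3 CPM in the CCl4 mice, 2.71 to 9.57 CPM in CCl4 + 4MU, 6.10 to 20.7 CPM in CCl4 + siLuc-LNP and 6.15 to 9.32 CPM in CCl4 + siHAS2-LNP mice. It followed the checkpoint kinases, with a log2 fold change of 5.13 (SE 0.504, adjusted p = 3.51e-08) between CCl4 and control mice, of -2.16 (SE 0.436, adjusted p = 0.00217) between CCl4 + 4MU and CCl4 and of -1.73 (SE 0.438, adjusted p = 0.0113) between CCl4 + siHAS2-LNP and CCl4 mice. Aurka was already present without CCl4, at 4.28, 3.66, 4.01 and 2.99 CPM in the control and 4.099, 4.53 and 3.55 CPM in the 4MU mice. It was at 26.7 and 53.9 CPM in the CCl4 mice, 8.09, 8.98, 16.5 and 4.63 CPM in CCl4 + 4MU, 20.7, 11.8, 13.6 and 30.8 CPM in CCl4 + siLuc-LNP and 17.2, 12.2, 11.3 and 12.7 CPM in CCl4 + siHAS2-LNP mice. The higher CCl4 mouse stood above all others, and mouse 4 of CCl4 + 4MU within the range of the livers without CCl4. Aurka rose by 3.44 (SE 0.354, adjusted p = 7.06e-08) with CCl4. Against CCl4 mice it fell by 2.08 with 4MU (SE 0.340, adjusted p = 0.000706) and by 1.59 with siHAS2-LNP (SE 0.341, adjusted p = 0.00419) on the log2 scale.

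The counts of Aurka are uncertain. Of its 3907 exonic bases in GENCODE vM39, 984 lie under exons of Fam210b, 293 under exons of Cstf1 and 233 under those of Gm75386, all on the other strand, and the strand setting of the counting was not given in the sources used here. Without strand, reads of Aurka and of these genes cannot be told apart where they overlap. Fam210b moved the other way from Aurka with CCl4 (log2 fold change -0.79, SE 0.220, adjusted p = 0.00713), and Cstf1 did not pass (-0.31, adjusted p = 0.114). How far reads from these genes enter the Aurka level of livers without CCl4 was not tested. Exons of other predicted genes on the opposite strand covered 265 of 6136 exonic bases of Ttk, 34 of 6641 of Nuf2 and 486 of 16565 of Cenpf.

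The first question of the design was how the genes respond to CCl4. All 10 genes rose between control and CCl4 mice, with log2 fold changes of 2.81 to 6.60 (median 5.39), while 18.0% of the 14114 genes tested rose and the median of all was -0.02. Bub1 and Ttk, with the highest values, passed the filter only through the CCl4-treated livers, so their rise was favoured in advance. The other 8 rose by 2.81 for Mad2l1 to 6.07 for Cenpf. All 10 also rose in each treated arm, with the same limit for Bub1 and Ttk. In CCl4 + 4MU against 4MU mice 10 of 10 rose (13.2% of all genes), by 1.23 for Aurka to 7.85 for Ttk, of which the latter is a fitted value against a group at or under 3 counts. In CCl4 + siLuc-LNP against siLuc-LNP mice 10 of 10 rose (13.0% of all genes), by 2.44 to 5.14, and in CCl4 + siHAS2-LNP against siHAS2-LNP mice 10 of 10 rose (7.74% of all genes), by 1.31 to 3.82. Averaged over the 4 arms, 10 of 10 rose (26.3% of all genes), from 2.104 for Aurka to 5.77 for Ttk. The averages of Bub1, Ttk, Ndc80 and Nuf2 include fitted values against 4MU mice at or under 3 counts. With 3 counts taken as the 4MU level, these genes were at least 23.8, 34.7, 16.5 and 40.7 times higher in CCl4 + 4MU mice. Some calls of a rise with CCl4 were lost when 1 mouse was left out. That of Aurka in the 4MU arm was lost without mouse 3 of 4MU (1.14, adjusted p = 0.0521) or mouse 3 of CCl4 + 4MU (0.82, adjusted p = 0.0619). In the siHAS2-LNP arm, the calls of Bub1, Ndc80 and Aurka were lost without mouse 1 of siHAS2-LNP, at log2 fold changes of 2.37, 1.78 and 1.26 (adjusted p = 0.0569, 0.0621 and 0.0534) against 2.56, 1.75 and 1.31 with it. That of Ndc80 was also lost without mouse 3 (1.56, adjusted p = 0.0884).

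Summed markers of cell types moved with CCl4 as well. Summed stellate cell and myofibroblast markers (Lrat, Des, Pdgfrb, Acta2, Col1a1 and Col3a1) were at 41.6 to 75.9 CPM in control and 403 and 656 CPM in CCl4 mice, and summed hepatocyte markers at 157200 to 194800 CPM in control and 72490 and 127200 CPM in CCl4 mice. Single hepatocyte markers were mixed. Of the 5, 2 were lower and 0 higher between control and CCl4 mice (log2 fold changes -1.16 to 0.75, median -0.28), against 16.1% of all genes lower. Averaged over the 4 arms, 2 were lower and 1 higher, against 25.6% and 26.3% of all genes. Summed bile duct markers (Krt19, Krt7, Epcam and Sox9) were at 4.33 to 11.6 CPM in control and 16.0 and 23.4 CPM in CCl4 mice. Of these 4 genes 1 rose between control and CCl4 mice (Krt7) and 4 averaged over the 4 arms (median log2 fold change 1.37). In whole liver, more dividing cells and more mRNA per cell cannot be told apart, and the part of these cell types in the rise was not tested.

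The second question was whether treatment changed the genes in CCl4-treated mice. All 10 were lower in CCl4 + 4MU than in CCl4 mice, by 1.40 for Mad2l1 to 2.50 for Ndc80 on the log2 scale, with adjusted p from 0.000706 to 0.00962, against 10% of all genes that were lower. In CCl4 + siHAS2-LNP against the same CCl4 mice 8 of 10 were lower, against 7.33% of all genes, with Mad2l1 and Cenpf as the exceptions. In CCl4 + siLuc-LNP against CCl4 mice 0 of 10 passed the threshold of edgeR, against 0.248% of all genes in either direction. All 10 log2 fold changes of this last comparison were negative (-1.07 for Aurka to -0.36 for Mad2l1), with Aurka, Ndc80 and Aurkb at an unadjusted p under 0.05, and DESeq2 gave 0 as well. The count over all genes moved with single libraries, since 1076 genes passed without mouse 4 of CCl4 + siLuc-LNP and 196 without mouse 1 of CCl4, against 35 with all mice. Of the 10 genes 1 and 0 then passed. The 3 comparisons share the 2 CCl4 mice. Mouse 2 of CCl4 had the highest level of the 14 CCl4-treated livers in 9 of the 10 genes and about 2 times the summed level of mouse 1 (350 against 178 CPM). Without mouse 2, 0 of 10 genes passed in CCl4 + 4MU against CCl4, with log2 fold changes from -1.82 for Bub1 to -1.05 for Mad2l1 and adjusted p from 0.0581 to 0.206, and 0 of 10 in CCl4 + siHAS2-LNP against CCl4. Calls over the whole table fell as well. Of all genes, in either direction, 184 then passed with 4MU, where 1412 lower and 1168 higher genes had passed, and 108 with siHAS2-LNP, where 1035 lower and 1003 higher genes had passed. Such a fit assumes that the lone CCl4 mouse varies like the other groups. Without mouse 1, the counts were 10 and 8. Leaving out mouse 4 of CCl4 + 4MU kept 10 of 10, while the count for siHAS2-LNP was 5 without mouse 3 and 6 without mouse 4 of CCl4 + siHAS2-LNP, the library of lowest depth, with 1235 and 1524 of all genes past the threshold. It was 10 with no other group in the fit and 10 without a filter on low counts.

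**Figure D2:**
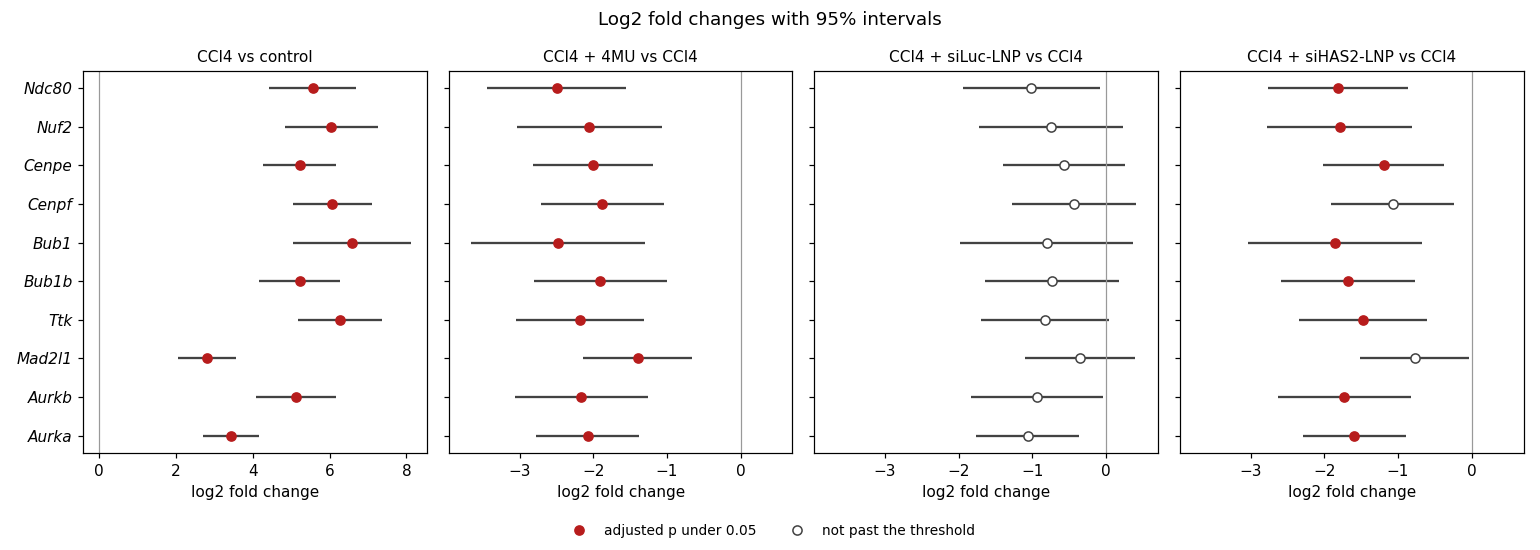
Log2 fold changes of the 10 genes from edgeR with their 95% intervals, filled points past an adjusted p of 0.05. The left panel has its own axis, and the others share one. All 10 points are filled in CCl4 + 4MU against CCl4, 8 in CCl4 + siHAS2-LNP against CCl4 and 0 in CCl4 + siLuc-LNP against CCl4.

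Stellate cell and myofibroblast markers summed to 142 to 414 CPM in CCl4 + 4MU, 245 to 756 CPM in CCl4 + siLuc-LNP and 168 to 263 CPM in CCl4 + siHAS2-LNP mice. By median they were lowest in CCl4 + siHAS2-LNP mice, and the kinetochore genes were lowest in CCl4 + 4MU mice. Between these groups 0 of the 6 markers and 0 of the 10 genes passed the threshold, against 1.22% of all genes in either direction. Summed hepatocyte markers were at 145400 to 174100 CPM in CCl4 + 4MU, 103700 to 147300 CPM in CCl4 + siLuc-LNP and 107000 to 161900 CPM in CCl4 + siHAS2-LNP mice. Kupffer cell and macrophage markers summed to 180 and 212 CPM in CCl4, 141 to 267 CPM in CCl4 + 4MU, 81.5 to 119 CPM in CCl4 + siLuc-LNP and 50.9 to 67.5 CPM in CCl4 + siHAS2-LNP mice. Against CCl4 mice 4 of these 5 markers were lower with siHAS2-LNP and 0 with 4MU. The part of these markers in the differences was not tested.

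Compared directly, the treated groups differed less. In CCl4 + siHAS2-LNP against CCl4 + siLuc-LNP mice 0 of 10 genes passed (1.09% of all genes in either direction), with log2 fold changes of -1.05 for Bub1 to -0.42 for Mad2l1, 4 of them at an unadjusted p under 0.05, and 0 in DESeq2. The 95% interval for Bub1 ran from -2.07 to -0.02. In CCl4 + 4MU against CCl4 + siHAS2-LNP mice 0 of 10 passed (1.22% of all genes in either direction), with values of -0.81 for Cenpe to -0.23 for Bub1b, 2 at an unadjusted p under 0.05, and 0 in DESeq2. CCl4 + 4MU against CCl4 + siLuc-LNP mice lay at the threshold: 0 of 10 passed (0.623% of all genes in either direction), all 10 had an unadjusted p under 0.05, and adjusted p ran from 0.0509 for Cenpe and Cenpf to 0.106 for Bub1b. The log2 fold changes were -1.67 for Bub1 to -1.01 for Aurka. DESeq2 called 8 of these 10, and edgeR called 10 without mouse 3 of CCl4 + 4MU and 9 without mouse 2 or mouse 3 of CCl4 + siLuc-LNP. In these settings 520, 351, 576 and 925 of all genes passed, against 88 otherwise.

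Summed over the 10 genes, the level was 264 CPM in CCl4 mice (178 and 350), 163 ± 82.2 CPM (SD, n = 4) in CCl4 + siLuc-LNP, 103 ± 5.14 CPM (n = 4) in CCl4 + siHAS2-LNP and 68.5 ± 35.7 CPM (n = 4) in CCl4 + 4MU mice. It was 22.9 ± 3.88 (n = 3) in siHAS2-LNP, 15.9 ± 2.46 (n = 3) in siLuc-LNP, 13.4 ± 1.37 (n = 4) in control and 10.9 ± 2.88 (n = 3) in 4MU mice. Neighbours in this order did not differ past the threshold where they were compared, and CCl4 + 4MU and siHAS2-LNP mice, neighbours at the step between the groups with and without CCl4, were not compared. The CCl4 + siHAS2-LNP mice stood within 97.9 to 109 CPM of each other. The CCl4 + siLuc-LNP mice ranged from 97.1 to 278 CPM, and mouse 4 among them was first or second of the 14 CCl4-treated livers in every one of the 10 genes. Mouse 4 of CCl4 + 4MU, at 26.9 CPM, was the lowest of the 14 in all 10.

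In mice without CCl4, the comparisons asked what the treatments alone did. In 4MU against control mice 0 of 10 passed (0.00709% of all genes in either direction), 5 had an unadjusted p under 0.05, and DESeq2 gave 0. The 5 were Bub1b (log2 fold change -2.57), Aurkb (-2.24), Ttk, Ndc80 and Nuf2, of which the last 3 were at or under 3 counts in every 4MU mouse. Mad2l1 (-0.04, 95% interval -0.76 to 0.69) and Aurka (0.13, -0.58 to 0.83) stood apart from them. Without these 2, the other 8 genes together had 5, 37 and 14 counts in the 4MU mice and 95, 37, 81 and 82 counts in the control mice, and the depth did not allow more to be said of single genes. In siLuc-LNP against control mice 0 of 10 passed (0.213% of all genes in either direction), and Ndc80 (log2 fold change 1.85) alone had an unadjusted p under 0.05, with 0.915, 1.20 and 0.879 CPM above all control mice. In siHAS2-LNP against siLuc-LNP mice 0 of 10 passed (0.0425% of all genes in either direction) and 0 had an unadjusted p under 0.05, with all 10 log2 fold changes positive, from 0.15 for Ndc80 to 1.20 for Bub1. DESeq2 gave 0 in both comparisons. Erythroid markers, whose precursors divide, summed to 63.0 to 74.0 CPM in siHAS2-LNP, 15.2 to 93.6 CPM in siLuc-LNP, 31.3 to 46.9 CPM in control and 11.7 to 25.5 CPM in 4MU mice, and their part was not tested.

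Whether the response to CCl4 itself differed between arms was tested as an interaction. For 4MU 1 of 10 genes passed, Aurka, against 2.95% of all genes that passed in that direction. Its rise with CCl4 was smaller in the 4MU arm than in mice without treatment (log2 difference -2.20, SE 0.485, adjusted p = 0.0167), 1.23 against 3.44. The call was lost without mouse 2 of CCl4 (-1.63, adjusted p = 0.152). Mad2l1 was next, at -1.36 (SE 0.503, adjusted p = 0.0948), and the other 8 genes lay between -0.73 for Cenpe and 1.59 for Ttk with standard errors of 0.621 to 1.42. For 4 of these 8 (Bub1, Ttk, Ndc80 and Nuf2) every 4MU mouse was at or under 3 counts. For siHAS2-LNP against siLuc-LNP 0 of 10 passed (0.0354% of all genes in either direction), with all 10 values negative (-2.25 for Bub1 to -0.78 for Mad2l1), 6 of them at an unadjusted p under 0.05, and 0 in DESeq2.

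The make-up of the gene set changed with the level. Per kilobase of the canonical transcript, Mad2l1 and Aurka together made up 82.3% ± 5.04 (SD, n = 4) of the summed level of the 10 genes in control, 96.7% ± 2.63 (n = 3) in 4MU, 67.9% ± 4.195 (n = 3) in siLuc-LNP and 67.3% ± 2.71 (n = 3) in siHAS2-LNP mice. In the CCl4-treated groups the share was 40.3% and 45.9% in CCl4, 52.3% ± 2.77 (n = 4) in CCl4 + 4MU, 47.2% ± 4.58 (n = 4) in CCl4 + siLuc-LNP and 53.0% ± 4.31 (n = 4) in CCl4 + siHAS2-LNP mice. No CCl4-treated mouse reached the share of a mouse without CCl4. The counts of Aurka may include reads of Fam210b and Cstf1, so its part of the share is uncertain. With the length of all annotated exons in place of the canonical transcript, a choice made after seeing the data, the mean shares were lower, 74.1% in control and 34.8% in CCl4 mice, since Mad2l1 has long alternative exons. The levels per kilobase in CCl4 mice ran from 24.3 CPM per kilobase for Mad2l1, 12.7 for Aurka and 11.9 for Aurkb down to 3.34 for Cenpe and 2.78 for Cenpf.

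**Figure D3:**
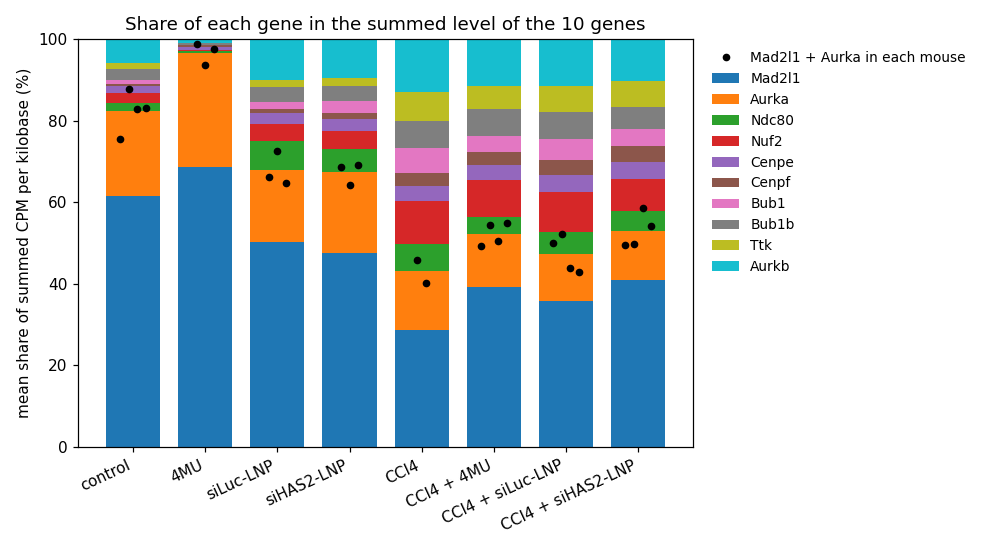
Mean share of each gene in the summed CPM per kilobase of canonical transcript of the 10 genes, as stacked bars per group, with points for the joint share of Mad2l1 and Aurka in each mouse. The points lie at 64.2% or above in the groups without CCl4 and at 58.7% or below in the CCl4-treated groups. The counts of Aurka may include reads of overlapping genes.

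The genes varied together across mice. Among the 14 CCl4-treated livers, Spearman's rho of CPM between pairs of the 10 genes ran from 0.763 to 0.969 (median 0.868, 45 pairs), as a description of libraries that share treatments and scaling. Among the 13 livers without CCl4 it ran from 0.0743 to 0.973 (median 0.741), with the lowest means for Mad2l1 (0.307) and Aurka (0.354). The genes outside the set with the highest mean rho over the 14 CCl4-treated livers were Tpx2 (0.916), an activator of Aurora A, Pbk (0.916), a mitotic kinase, Kntc1 (0.910), a part of the checkpoint complex RZZ, and the kinesins Kif11 (0.909) and Kif4 (0.907).

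Further genes of the same machinery were examined as lists, in which every gene was tested. Of all genes, 18.0% rose between control and CCl4 mice. Of the inner kinetochore, the layer on centromeric chromatin, 18 of 21 genes rose between control and CCl4 mice (median log2 fold change 2.51), led by Oip5 (6.44), Cenpi (5.42) and Cenph (5.32), while Cenpo (0.31), Cenpx (0.10) and Hjurp (0.44) did not pass. Of the remaining outer kinetochore 9 of 11 rose (median 3.21), among them the scaffold Knl1 (5.51) and the Ska subunits Ska3 (5.44) and Ska1 (5.37), while Zwint (-0.23) and Pmf1 (0.44) did not pass. Of the other checkpoint genes 8 of 9 rose (median 3.76), with Kntc1 at 6.73, Cdc20 at 5.65 and Spdl1 at 4.93, and Mad2l1bp (-0.12) as the exception. All 9 genes of the Aurora B passenger complex and of cohesion rose (median 4.88), including Sgo1 (5.69), which guards cohesin, Espl1 (5.47), the protease separase, and Birc5 (5.29), survivin. All 8 partners of Aurora A and genes of spindle assembly rose (median 4.43), including the hyaluronan-binding spindle protein Hmmr (6.25, SE 0.511, adjusted p = 3.48e-09), Tpx2 (6.19) and the kinase Plk1 (5.64). Of the 17 genes of the anaphase-promoting complex 6 rose (median 0.20), led by its ubiquitin-conjugating enzymes Ube2c (5.74) and Ube2s (1.69) and by Anapc4 (0.89).

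In CCl4 + 4MU against CCl4 mice the same lists held 16 of 21 genes that were lower in the inner kinetochore (median -1.54), 9 of 11 in the outer kinetochore (median -1.59), 7 of 9 of the other checkpoint genes (median -1.58), 9 of 9 of the passenger complex and cohesion (median -1.88), 8 of 8 Aurora A partners (median -1.60) and 4 of 17 of the anaphase-promoting complex (median 0.01). Among the largest decreases were those of Cenph (-3.29), Kntc1 (-2.72), Cenpi (-2.51) and Trip13 (-2.41), the last the ATPase that turns Mad2 over. Cenpm (0.04), Cenpo (-0.34), Cenpp (-1.10), Cenpx (-0.04), Hjurp (-0.42), Zwint (-0.23), Pmf1 (-0.07), Mad1l1 (-0.16) and Mad2l1bp (-0.22) did not pass. In CCl4 + siHAS2-LNP against CCl4 mice 10 of 21, 3 of 11, 5 of 9, 5 of 9, 4 of 8 and 4 of 17 genes of these lists were lower, in the same order, with medians of -1.23, -1.18, -1.16, -1.42, -1.22 and -0.10. Cenpq (-2.14), Kntc1 (-2.17), Spdl1 (-2.06), Cdca5 (-1.83), Knl1 (-1.71) and Tpx2 (-1.42) were among those past the threshold, while Cdc20 (-1.16, adjusted p = 0.0819), Zwilch (-1.26), Mad1l1 (-0.37) and Mad2l1bp (-0.18) of the checkpoint, Birc5 (-0.97), Sgo2a (-1.32), Pttg1 (-0.42) and Espl1 (-1.26) of the passenger complex and cohesion, and Plk1 (-1.199, adjusted p = 0.0501), Bora (-0.40), Cep192 (-0.47) and Ckap5 (-0.67) among the Aurora A partners were not. Hmmr fell in both, by 1.76 with 4MU (adjusted p = 0.00557) and by 1.27 with siHAS2-LNP (adjusted p = 0.0408) on the log2 scale. In CCl4 + siLuc-LNP against CCl4 mice 0 genes of these 6 lists passed, with medians of -0.79 to -0.04.

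**Figure D4:**
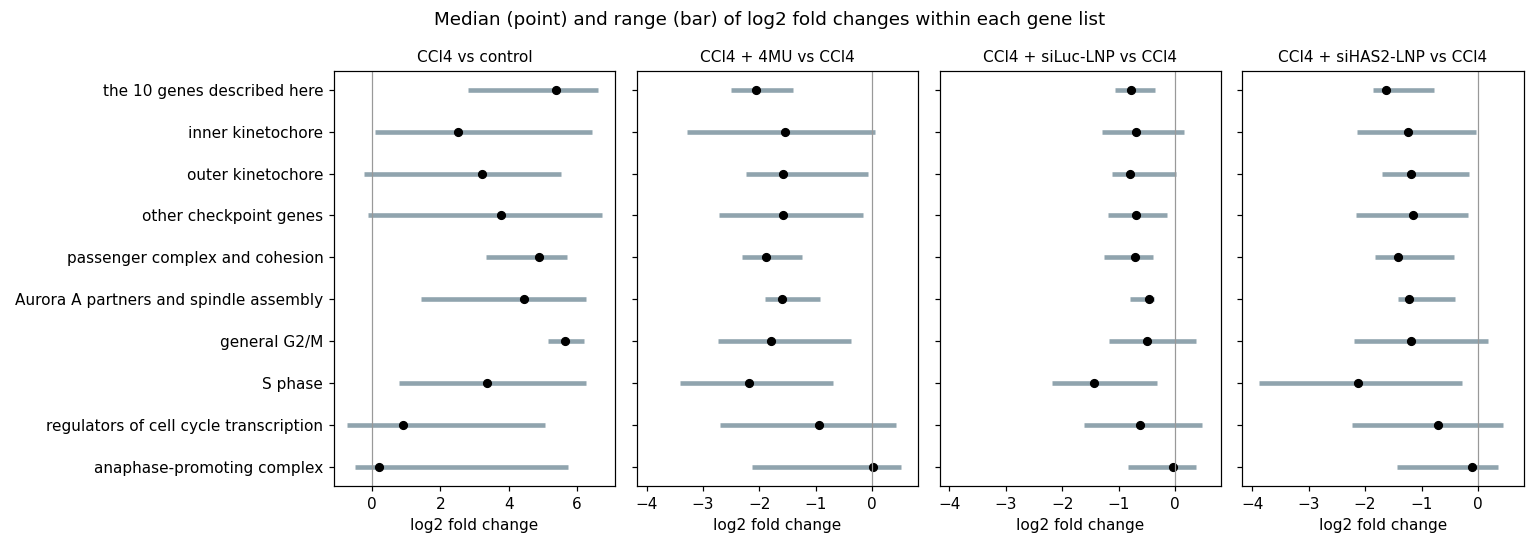
Median (point) and full range (bar) of log2 fold changes in each gene list, with the 10 genes described here in the top row. The left panel has its own axis. The medians of the kinetochore, checkpoint, G2/M and S phase lists lie above 2 after CCl4 and below -1 in CCl4 + 4MU and CCl4 + siHAS2-LNP against CCl4, and the anaphase-promoting complex stays near 0.

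Of 22 regulators of cell cycle transcription, 11 rose and 2 fell with CCl4 (median 0.90), and against CCl4 mice 12 were lower with 4MU and 7 with siHAS2-LNP. Foxm1, the transcription factor of G2 and mitosis, rose by 5.05 on the log2 scale (SE 0.476, adjusted p = 2.16e-08) from 0.604 ± 0.311 CPM (SD, n = 4) in control to 12.2 and 27.6 CPM in CCl4 mice. It fell by 1.46 in CCl4 + 4MU against CCl4 mice (SE 0.407, adjusted p = 0.0160), and its change in CCl4 + siHAS2-LNP mice did not pass (-1.14, adjusted p = 0.0610). Mybl2, B-Myb, rose by 3.63 with CCl4 (SE 0.602, adjusted p = 5.72e-05) and fell by 2.21 with 4MU (SE 0.545, adjusted p = 0.00777) but not past the threshold with siHAS2-LNP (-1.32, adjusted p = 0.101). Cdkn1a, the inhibitor p21, rose by 3.41 with CCl4 (SE 0.580, adjusted p = 7.71e-05), and neither its value with 4MU (-1.10, adjusted p = 0.169) nor that with siHAS2-LNP (-0.71, adjusted p = 0.420) passed.

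All 18 genes of S phase rose with CCl4 (median 3.35) and all 18 were lower in CCl4 + 4MU than in CCl4 mice (median -2.18), and 17 of 18 were lower in CCl4 + siHAS2-LNP mice (median -2.13). The largest decreases with siHAS2-LNP were those of Cdc6 (-3.87), which licenses origins, Rrm2 (-2.86), a subunit of ribonucleotide reductase, and Ccne1 (-2.65), cyclin E. The 7 general G2/M genes all rose with CCl4 (median 5.66, Mki67 5.28, SE 0.469), and 6 of 7 were lower with 4MU (Mki67 -1.80, adjusted p = 0.00621, with Ccnb2 at -0.38 as the exception). With siHAS2-LNP 3 of 7 were lower (Top2a, Cdk1 and Ccna2), and Mki67 (-1.19, adjusted p = 0.0610), Ccnb1 (-0.99), Ccnb2 (0.19) and Cdc25c (-1.03) did not pass. In CCl4 + siLuc-LNP against CCl4 mice 0 of 18 S phase genes (median -1.44) and 0 of 7 G2/M genes (median -0.49) passed, against 0.248% of all genes. Nor did any pass in CCl4 + siHAS2-LNP against CCl4 + siLuc-LNP mice (medians -0.67 and -0.77), against 1.09% of all genes, both shares in either direction. The mean log2 CPM of the 10 genes minus that of the 18 S phase genes in the same liver was -0.92 in both CCl4 mice, -0.76, -0.49, -0.66 and -1.48 in CCl4 + 4MU, -0.12, -0.02, -0.31 and -0.42 in CCl4 + siLuc-LNP and -0.44, -0.28, -0.41 and -0.14 in CCl4 + siHAS2-LNP mice. All 8 mice given nanoparticles thus stood above all 6 CCl4-treated mice without them, by a description that was not tested, since the score was made over the chosen genes.

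**Figure D5:**
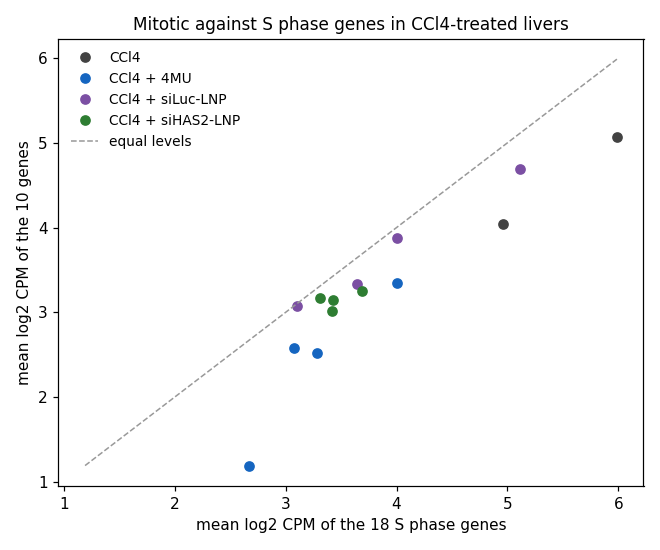
Mean log2 CPM of the 10 kinetochore and checkpoint genes against that of the 18 S phase genes, 1 point per CCl4-treated liver, with a dashed line of equal levels. The CCl4 + siLuc-LNP and CCl4 + siHAS2-LNP mice lie 0.02 to 0.44 below the line and the CCl4 and CCl4 + 4MU mice 0.49 to 1.48 below it.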

How the data were processed

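Liver RNA of 27 mice in 8 groups was measured by paired-end RNA-seq. Per the submitters' processing notes and the methods, the authors trimmed reads with Trimmomatic 0.39, aligned them to GRCm39 (annotation of Ensembl release 105) with HISAT2, version not given, and counted read pairs with featureCounts without multimapping reads. The strand setting is not given in the sources used here, so overlapping genes may share reads. The deposited values are raw counts, neither normalised nor filtered. Symbols came from GENCODE vM39, which matched 54749 of 55414 identifiers.

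Testing was limited to genes averaging 10 or more counts per library, in 1 fit of all libraries with edgeR 4.0.16 (TMM, quasi-likelihood test, R 4.3.3) without covariates, Benjamini-Hochberg adjustment over 14114 genes and a threshold of 0.05, both directions. SE is the log2 fold change over the square root of F, and 95% intervals use its t distribution. Scripts were tested on simulated data. Alternatives were DESeq2 1.42.0, its size factors, no filter, filterByExpr, a replicate block, only the compared groups, and each mouse left out. Pairs of libraries within a group differed beyond sampling noise (chi-square per degree of freedom 15.3 to 416), and labels do not say how mice were housed or processed.

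The genes and lists were chosen with earlier results of these data known, and no list was tested as a set. Named genes were all 10, Has2, Foxm1, Mybl2, Cdkn1a, Mki67, Plk1, Cdc20, Hmmr, up to 3 per list with the largest change past the threshold, those of a list that did not pass where 5 or fewer did not, and the 5 most correlated outside the set. Some genes that this rule names are not reported here.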

Additional observations from a re-analysis of the deposited data

Results flagged for a closer look

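A single mouse far above or far below the other 3 of its group was looked for in 40 combinations of gene and group of 4 mice. Chance would flag about 1 in 20 of these. Bub1b in mouse 4 of CCl4 + siLuc-LNP (22.2 CPM, the others 8.95 to 10.9 CPM) stood apart, by a gap of 0.853 of the whole range. Aurkb in mouse 1 of CCl4 + siHAS2-LNP (9.32 CPM, the others 6.15 to 6.34 CPM) stood apart by 0.940 of the range. The response of Aurka to CCl4 differed between 4MU mice and mice without treatment by the interaction term (log2 difference -2.20, SE 0.485, adjusted p = 0.0167), the only one of the 10 genes for which it passed, and the counts of Aurka may share reads with Fam210b and Cstf1.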

How the results depend on the processing

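No log2 fold change of the 69 calls reversed under any alternative. With DESeq2's size factors, without a filter and with filterByExpr, 69 of 69 calls kept their side of the threshold, with DESeq2 68 of 69 and with only the compared groups 58 held and 1 was lost. With the replicate block 68 of 69 calls held and that of Cenpe in CCl4 + siHAS2-LNP against CCl4 was lost (-1.22, adjusted p = 0.0729). The labels do not say that numbers pair mice, and deviations from the group means of same-numbered mice correlated at -0.321 to 0.296 (median -0.02, 83 pairs). With 1 library left out at a time, 629 calls held and 32 were lost, among them 10, 8 and 1 calls without mouse 2 of CCl4 in CCl4 + 4MU against CCl4, CCl4 + siHAS2-LNP against CCl4 and the interaction of 4MU. The number of the 10 genes past the threshold then ran from 0 to 10 in CCl4 + 4MU against CCl4, 0 to 1 in CCl4 + siLuc-LNP against CCl4, 0 to 8 in CCl4 + siHAS2-LNP against CCl4, 0 to 10 in CCl4 + 4MU against CCl4 + siLuc-LNP and 0 to 2 in the interaction of 4MU and CCl4. Without a filter it was 1 in CCl4 + siLuc-LNP against CCl4, 3 in CCl4 + siHAS2-LNP against CCl4 + siLuc-LNP, 2 in CCl4 + 4MU against CCl4 + siHAS2-LNP, 10 in CCl4 + 4MU against CCl4 + siLuc-LNP, 3 in 4MU against control, 1 in siLuc-LNP against control, 2 in the interaction of 4MU and 3 in that of siHAS2-LNP, all from 0 except the interaction of 4MU, from 1. Calls over all genes, of which more were then tested, also rose, to 427, 656, 975, 1042, 136, 143, 1386 and 304 in the same order. With the filter these were 35, 154, 172, 88, 1 and 30, then 384 higher and 416 lower, and 5. In CCl4 + 4MU against CCl4 + siLuc-LNP the number of the 10 genes was 2 with DESeq2's size factors, 8 with DESeq2 and 2 with filterByExpr. Of all genes 99, 520 and 100 passed there. The cause of these changes was not tested. Depth limits Bub1, Ttk, Ndc80 and Nuf2 in 4MU mice, at or under 3 counts each, and only 2 mice stand for CCl4.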

Other observations

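Among the kinetochore genes, Zwint, which links the outer kinetochore to the RZZ complex, went against the rest. It was at 71.7 ± 5.35 CPM (SD, n = 4) in control and 44.9 ± 10.8 CPM (n = 4) in CCl4 + siHAS2-LNP mice. These groups differ in both CCl4 and nanoparticles and were not compared. Zwint fell in the 4MU, siLuc-LNP and siHAS2-LNP arms, by 0.46, 0.46 and 0.90 on the log2 scale between mice with and without CCl4 (adjusted p = 0.0455, 0.0443 and 0.000649). Its value between CCl4 and control mice did not pass (-0.23, adjusted p = 0.371). Mis12, of the complex that joins the inner to the outer kinetochore, fell in the 4MU arm (-0.68, adjusted p = 0.0339) and had 12.5 ± 2.23 CPM (n = 4) in CCl4 + siHAS2-LNP against 17.0 ± 0.928 CPM (n = 3) in siHAS2-LNP mice (-0.44, adjusted p = 0.235). Both were named after their values were seen.

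Among the regulators, E2f5 was lower with CCl4 in all 4 arms (-0.62, -0.50, -0.54 and -0.64 for no treatment, 4MU, siLuc-LNP and siHAS2-LNP, adjusted p = 0.0217, 0.0391, 0.0268 and 0.0170), and Lin37, a subunit of the DREAM complex, in CCl4 against control mice (-0.74, adjusted p = 0.0263). These were the only regulators that fell between control and CCl4 mice. E2f7 and E2f1 rose by 4.43 and 3.71 with CCl4, were lower by 2.69 and 2.07 in CCl4 + 4MU and by 2.24 and 2.00 in CCl4 + siHAS2-LNP than in CCl4 mice. E2f1 was also lower in CCl4 + siLuc-LNP than in CCl4 mice (-1.61, adjusted p = 0.0398), as was Rbbp4 (-0.67, adjusted p = 0.0398). In that comparison 0 of the 10 kinetochore and checkpoint genes passed, and 0.248% of all genes in either direction. The values against CCl4 mice rest on the same 2 CCl4 mice and were not examined with a mouse left out.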
